A study of Daucus carota with 6 samples.

Results

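Shikimate and aromatic amino acid synthesis was followed in 50 carrot genes, out of 35073 genes in the deposited table. These are the rows that the table assigns to the KEGG map of phenylalanine, tyrosine and tryptophan biosynthesis, apart from 1 arogenate dehydrogenase gene, which is not analysed here. By the enzyme name that KEGG gives, 16 genes belong to the trunk that ends in chorismate, 10 to the steps from chorismate toward phenylalanine and tyrosine, 12 to the tryptophan branch and 12 to aminotransferases, which also serve other pathways. Expression was measured by RNA-seq in fleshy roots of carrot (Daucus carota), in 3 samples of betanin-transgenic plants (BC) and 3 of non-transgenic plants (WT). The BC plants are stable transformants with CYP76AD1S, cDOPA5GTS and DODA1S, which give them the red pigment betanin throughout the plant, and WT carries none of these genes. The promoters, the number of independent lines, the plants' ages and whether a sample is 1 plant or a pool are not stated by the labels, so p-values speak of the spread among these 6 samples alone, which may be technical.

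Plants make all 3 aromatic amino acids in plastids from phosphoenolpyruvate and erythrose 4-phosphate. The enzymes of the trunk, from DAHP synthase to chorismate synthase, condense these and build chorismate. Chorismate mutase then opens the way to phenylalanine and tyrosine, and anthranilate synthase the way to tryptophan. Phenylalanine feeds lignin and flavonoids, and tyrosine is the compound from which betalain pigments such as betanin are made.

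Levels are FPKM, fragments corrected for the size of the transcript and of the library, so genes of different length can be compared. FPKM summed to between 1141946 and 1186758 in WT and between 1184875 and 1287459 in BC, and the read depth is unknown. Summed FPKM of 34 genes annotated by the words for light-harvesting proteins or the Rubisco small subunit, taken as green tissue genes, lay between 2683 and 4367 in WT and between 13455 and 14563 in BC. Of these 27 rose, 3 of them tested through BC alone, and 2 fell. Summed FPKM of 28 genes found by words for phloem protein 2, F-box genes among them, was 561 to 1286 in WT and 316 to 376 in BC. A few genes carried that sum, novel558 with a mean of 419 FPKM in WT and 40.7 FPKM in BC above all, and of 23 tested 4 rose, 8 fell and 11 were not called. As periderm genes were taken 10 genes, all described as omega-hydroxypalmitate O-feruloyl transferase or like it. Their summed FPKM was 50.1 to 65.6 in WT and 95.9 to 124 in BC, mainly through DCAR_000388.v1.0 (6.43 and 47.5 FPKM on average). Of 7 tested periderm genes 3 rose and 1 fell, and 2 of the 3 were tested through BC alone. No gene was described as a xylem cysteine proteinase, and the only Casparian strip gene, a marker of the root endodermis, was at 0 in all 6 samples. The part of these tissue differences in the results below was not tested, and in bulk roots fewer cells of a type cannot be told apart from less RNA per cell.

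In BC roots a smaller share of pathway members was called than of all tested genes, in both directions, and this difference was not tested. Of the 41 members that reached 1 FPKM in 3 or more samples and were tested, 9 rose (against 22.8% of all 21033 tested genes) and 6 fell (against 23.5%). In all 36.6% of the members and 46.4% of all genes passed this test, limma with a Benjamini-Hochberg adjusted p below 0.05. A gene for DAHP synthase, an EPSP synthase gene, a tyrosine aminotransferase gene and an anthranilate synthase gene were among those that moved at least 2-fold. Of these 6 rose and 1 fell, against 2663 that rose and 1520 that fell among all 21033 tested genes. DCAR_001933.v1.0, which passed the filter on low values through BC alone, is among the 9 and the 6. The median log2 fold change over tested members was 0.01, and over all tested genes -0.02. For 11 members, DCAR_001933.v1.0 among them, every BC value lay above every WT value and for 9 below, a separation that 57.1% of all tested genes showed.

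**Figure D1:**
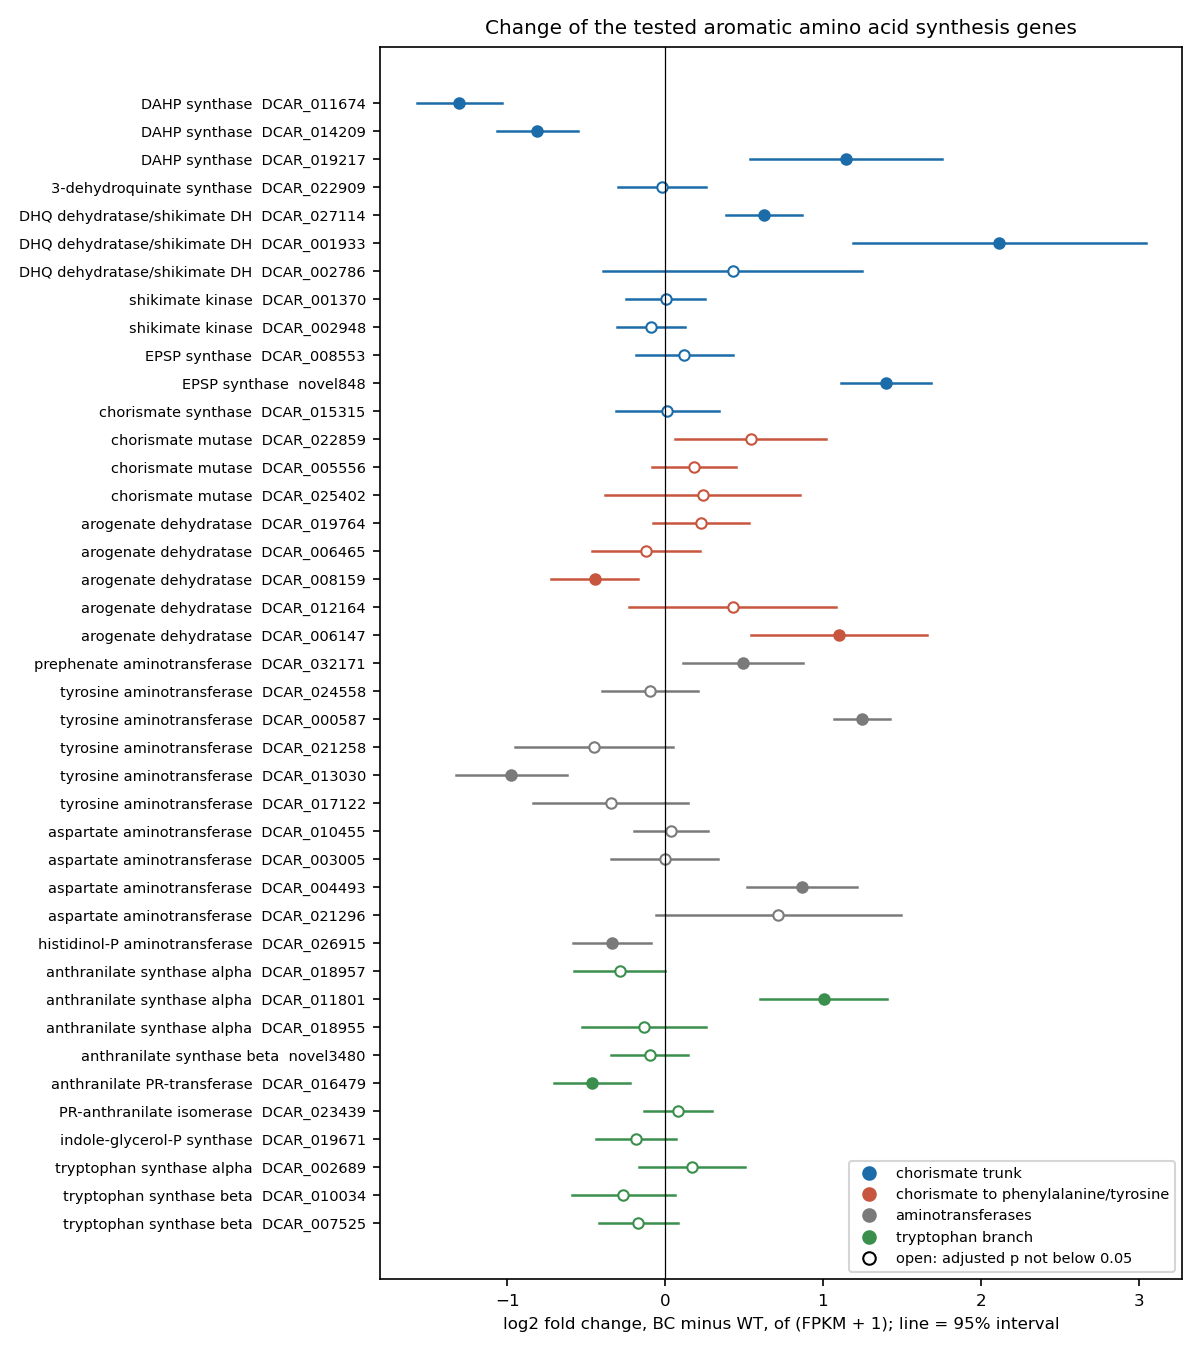
Log2 fold change of (FPKM + 1), BC minus WT, for the 41 tested members in pathway order, with 95% intervals from limma. Filled points passed an adjusted p of 0.05 (9 higher, 6 lower), and most open points lie close to 0.

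In the trunk, 4 of the 12 tested members rose and 2 fell, a share close to the 46.4% called among all tested genes. Of the 4, DCAR_001933.v1.0 was tested through BC alone, and without it 5 of 11 trunk members were called. In all the branches together 9 of 29 (31.0%) were called, of which 5 rose and 4 fell. Toward phenylalanine and tyrosine 1 of 8 rose and 1 fell, in the tryptophan branch 1 of 10 rose and 1 fell, and among the aminotransferases 3 of 11 rose and 2 fell. Median log2 fold changes were 0.07 in the trunk, 0.23 in the steps toward phenylalanine and tyrosine, -0.15 in the tryptophan branch and -0.00 among the aminotransferases. The median size of change, regardless of direction, was 0.53 in the trunk and 0.45 among the aminotransferases, so their medians are small beside it. That size was 0.33 toward phenylalanine and tyrosine and 0.18 in the tryptophan branch, against 0.42 over all tested genes. In the tryptophan branch the median lay close to this size. There 30% of tested members had a log2 fold change above 0, against 48.9% of all tested genes. The trunk values of 0.53 and 0.07 include DCAR_001933.v1.0 (log2 fold change 2.12), tested through BC alone. Without it the trunk's median size is that of DCAR_002786.v1.0 (0.43), close to the 0.42 over all tested genes. Its median log2 fold change is then that of DCAR_015315.v1.0 (0.01). The differences between trunk and branches are counts over genes and were not tested.

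DAHP synthase, the entry enzyme that commits carbon to the pathway, is encoded by 3 members, and these moved in opposite directions. DCAR_011674.v1.0, the most abundant of all members in WT, was at 135, 119 and 128 FPKM in WT replicates 1 to 3 and at 57.4, 51.8 and 44.6 FPKM in BC replicates 1 to 3. DCAR_014209.v1.0 was at 74.7, 60.7 and 71.8 FPKM in WT, against 37.9, 41.7 and 37.1 in BC. Both were lower in every BC sample than in any WT sample, with log2 fold changes of -1.30 (SE 0.11, adjusted p = 0.000215) and -0.81 (SE 0.11; limma, Benjamini-Hochberg adjusted p = 0.00132).

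The remaining gene, DCAR_019217.v1.0, was the scarce one in WT, at 10.6, 12.7 and 11.7 FPKM, and stood at 26.1, 39.65 and 18.8 FPKM in BC. All 3 BC samples were above WT but far apart from each other, and the log2 fold change was 1.15 (SE 0.25; limma, Benjamini-Hochberg adjusted p = 0.0108). Its part of all DAHP synthase FPKM was 5.64% ± 0.906 (SD, n = 3) in WT and 23.3% ± 5.76 in BC, while that of DCAR_011674.v1.0 was 61.3% ± 0.690 and 43.5% ± 4.27. The rise did not make up for the falls: the 3 genes summed to 220.4, 193 and 212 FPKM in WT, against 121, 133 and 100.5 in BC.

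**Figure D2:**
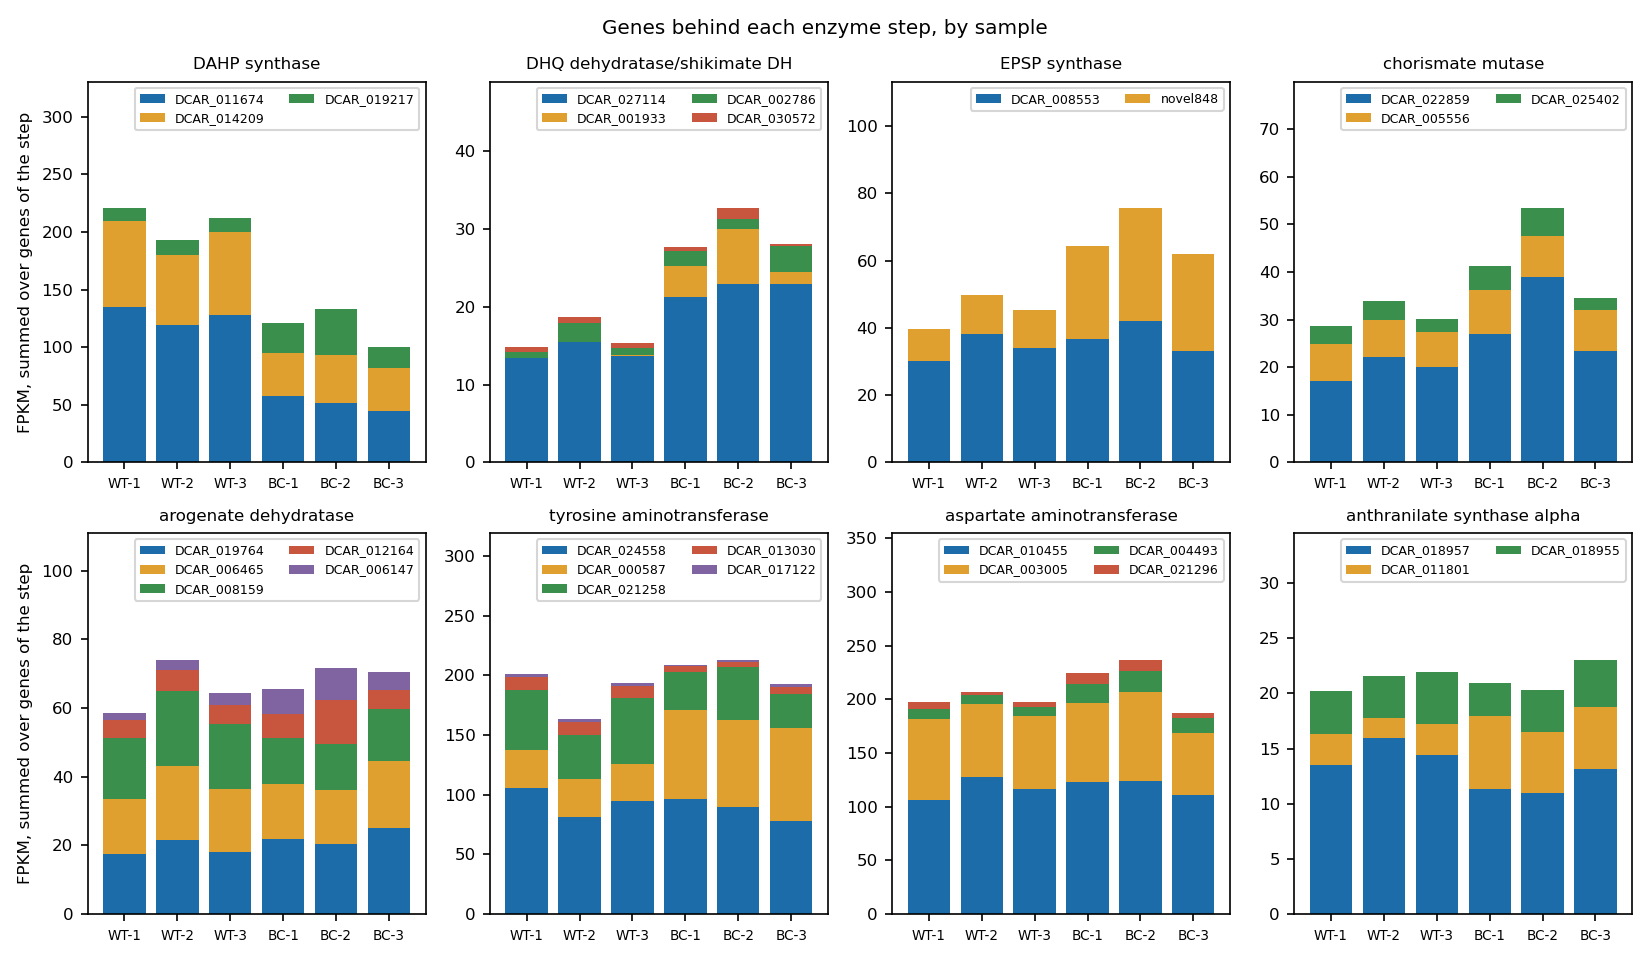
FPKM of each gene, stacked within 8 enzyme steps that have more than 1 expressed gene, for the 3 WT and 3 BC samples; genes at 0 in all samples are left out. The DAHP synthase bars are shorter in BC (118 against 208 FPKM on average), and the anthranilate synthase alpha bars have similar heights (21.4 against 21.3) with a larger part for DCAR_011801.v1.0.

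Between DAHP synthase and chorismate, DCAR_027114.v1.0 and novel848, genes of 2 enzymes, passed the test and rose. DCAR_001933.v1.0 was called as well, but it was tested through BC alone. 3-Dehydroquinate synthase has 1 expressed gene, DCAR_022909.v1.0, at 101 ± 3.62 FPKM in WT against 100.04 ± 14.04 in BC (95% interval of the log2 fold change -0.30 to 0.26), and DCAR_004721.v1.0 and DCAR_004732.v1.0 were listed at 0 in every sample. The bifunctional dehydroquinate dehydratase and shikimate dehydrogenase makes shikimate. Its main gene, DCAR_027114.v1.0, was at 13.4, 15.5 and 13.6 FPKM in WT, against 21.2, 23.0 and 22.9 in BC, a log2 change of 0.63 (SE 0.10; limma, Benjamini-Hochberg adjusted p = 0.00309). The groups did not overlap, and the BC samples were close to each other.

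Another gene of this enzyme is DCAR_001933.v1.0, singled out with its values known. It was near 0 in WT (0.07, 0.04 and 0.18 FPKM) and at 4.03, 7.07 and 1.65 FPKM in BC. It passed the filter on low values through the BC samples alone, so its call (adjusted p = 0.00508, by limma, Benjamini-Hochberg) adds nothing to the counts above as support. In BC it held 14.02% ± 7.90 of the FPKM of this step. DCAR_002786.v1.0, whose protein family annotation also lists domains foreign to this enzyme, was at 1.38 ± 0.940 and 2.17 ± 1.06 FPKM, and DCAR_030572.v1.0 reached 1 FPKM in BC replicate 2 alone and was not tested.

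Shikimate kinase, which phosphorylates shikimate, was represented by DCAR_001370.v1.0 at 47.2 ± 5.61 FPKM in WT against 47.1 ± 1.76 in BC. The 95% interval of its log2 fold change was -0.25 to 0.26. DCAR_002948.v1.0, described as a probable inactive shikimate kinase like protein, belongs to a group that in Arabidopsis acts in chloroplast development and not in the pathway, and it was at 38.3 ± 2.02 and 36.0 ± 2.49 FPKM. It did not pass the test.

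EPSP synthase, the target of the herbicide glyphosate, adds a second phosphoenolpyruvate to the molecule, and only 1 of its 2 genes passed the test. Values of novel848 were 9.56, 11.6 and 11.25 FPKM in WT and 27.9, 33.4 and 29.0 FPKM in BC, so that the lowest BC sample exceeded the highest WT sample more than any spread within a group. Its log2 fold change was 1.399 (SE 0.12; limma, Benjamini-Hochberg adjusted p = 0.000211). DCAR_008553.v1.0 was at 30.2, 38.1 and 34.0 FPKM in WT, against 36.5, 42.0 and 33.0 in BC, with overlapping groups and a 95% interval of -0.19 to 0.43 on the log2 scale. The part of novel848 in EPSP synthase FPKM was 24.1% ± 0.787 in WT and 44.8% ± 1.77 in BC.

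One of the descriptions of novel848 names a retrotransposon polyprotein beside EPSP synthase, it matched no RefSeq gene, and reads of near-identical genes are divided by estimation, so the split between these genes is uncertain. Chorismate synthase, the last enzyme of the trunk, had 1 expressed gene, DCAR_015315.v1.0, at 43.2 ± 6.07 FPKM in WT against 43.6 ± 5.23 in BC, with a 95% interval of -0.31 to 0.34 on the log2 scale. DCAR_012659.v1.0, also described as chorismate synthase, was listed at 0 in all samples. Along the trunk, totals of DAHP synthase, dehydroquinate dehydratase/shikimate dehydrogenase and EPSP synthase did not overlap between the groups. Those of 3-dehydroquinate synthase, shikimate kinase and chorismate synthase did. The dehydroquinate dehydratase/shikimate dehydrogenase total includes DCAR_001933.v1.0, which was tested through BC alone. Of all tested genes, taken singly, 57.1% did not overlap.

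**Figure D3:**
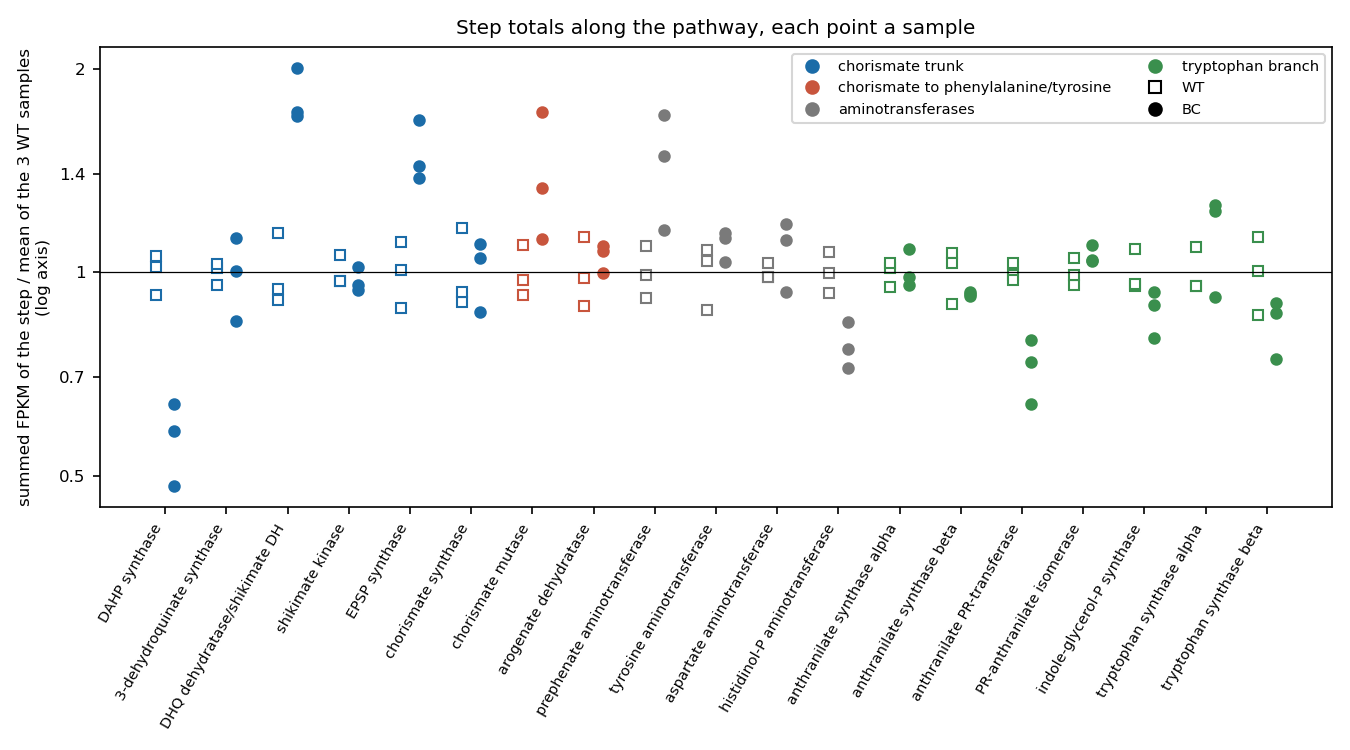
Summed FPKM of each of the 19 enzyme steps in every sample, divided by the mean of the 3 WT samples, on a log axis; squares are WT and circles BC. In the trunk BC lies below WT without overlap at DAHP synthase (mean ratio 0.568) and above it at dehydroquinate dehydratase/shikimate dehydrogenase (1.81) and EPSP synthase (1.499). The 1.81 includes DCAR_001933.v1.0, tested through BC alone, and the main gene of that step, DCAR_027114.v1.0, by itself had a ratio of 1.58. Outside the trunk BC lies above WT at chorismate mutase (1.39) and prephenate aminotransferase (1.45). There it lies below at histidinol-phosphate aminotransferase (0.778), anthranilate phosphoribosyltransferase (0.724) and indole-3-glycerol phosphate synthase (0.877). The ratios of the tryptophan steps run from 0.724 to 1.14.

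Chorismate mutase, the branch point toward phenylalanine and tyrosine, had 3 members, none of which passed the test (limma), and 1 had an unadjusted p below 0.05. The most abundant, DCAR_022859.v1.0, is described as chorismate mutase 2, in Arabidopsis a form outside the plastid. It was at 17.01, 22.2 and 20.1 FPKM in WT, against 27.0, 39.0 and 23.4 in BC, which did not overlap (log2 fold change 0.54 with SE 0.20; limma, Benjamini-Hochberg adjusted p = 0.0635). Without BC replicate 3 the adjusted p was 0.0326 (limma, Benjamini-Hochberg). The plastid-type genes DCAR_005556.v1.0 (7.63 ± 0.395 FPKM in WT, 8.80 ± 0.359 in BC) and DCAR_025402.v1.0 (3.46 ± 0.573 and 4.41 ± 1.62) were scarcer. All BC values of DCAR_005556.v1.0 were above WT.

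Arogenate dehydratases, which complete phenylalanine, were spread over 5 tested genes, of which 1 rose and 1 fell. DCAR_006147.v1.0, the scarcest in WT, was at 2.16, 3.03 and 3.43 FPKM there and at 7.44, 9.57 and 5.29 FPKM in BC, a log2 change of 1.105 (SE 0.23, adjusted p = 0.00891). DCAR_008159.v1.0, the most abundant in WT, was at 17.6, 21.7 and 19.04 FPKM in WT, against 13.3, 13.6 and 15.1 in BC, a log2 change of -0.44 (SE 0.12; limma, Benjamini-Hochberg adjusted p = 0.0198). Neither pair of groups overlapped. The call of DCAR_008159.v1.0 was lost without WT replicate 3 (adjusted p = 0.0692), BC replicate 1 (0.0723) or BC replicate 2 (0.0595, by limma, Benjamini-Hochberg).

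The other expressed dehydratases did not pass the test. DCAR_019764.v1.0 was at 19.02 ± 2.30 FPKM in WT against 22.4 ± 2.40 in BC, DCAR_006465.v1.0 at 18.7 ± 2.67 and 17.1 ± 2.20 FPKM, and DCAR_012164.v1.0 at 5.61 ± 0.469 and 8.35 ± 3.77 FPKM. DCAR_004224.v1.0 and DCAR_016512.v1.0 were listed at 0. The step as a whole had overlapping totals of 65.6 ± 7.77 FPKM in WT against 69.3 ± 3.30 in BC.

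**Figure D4:**
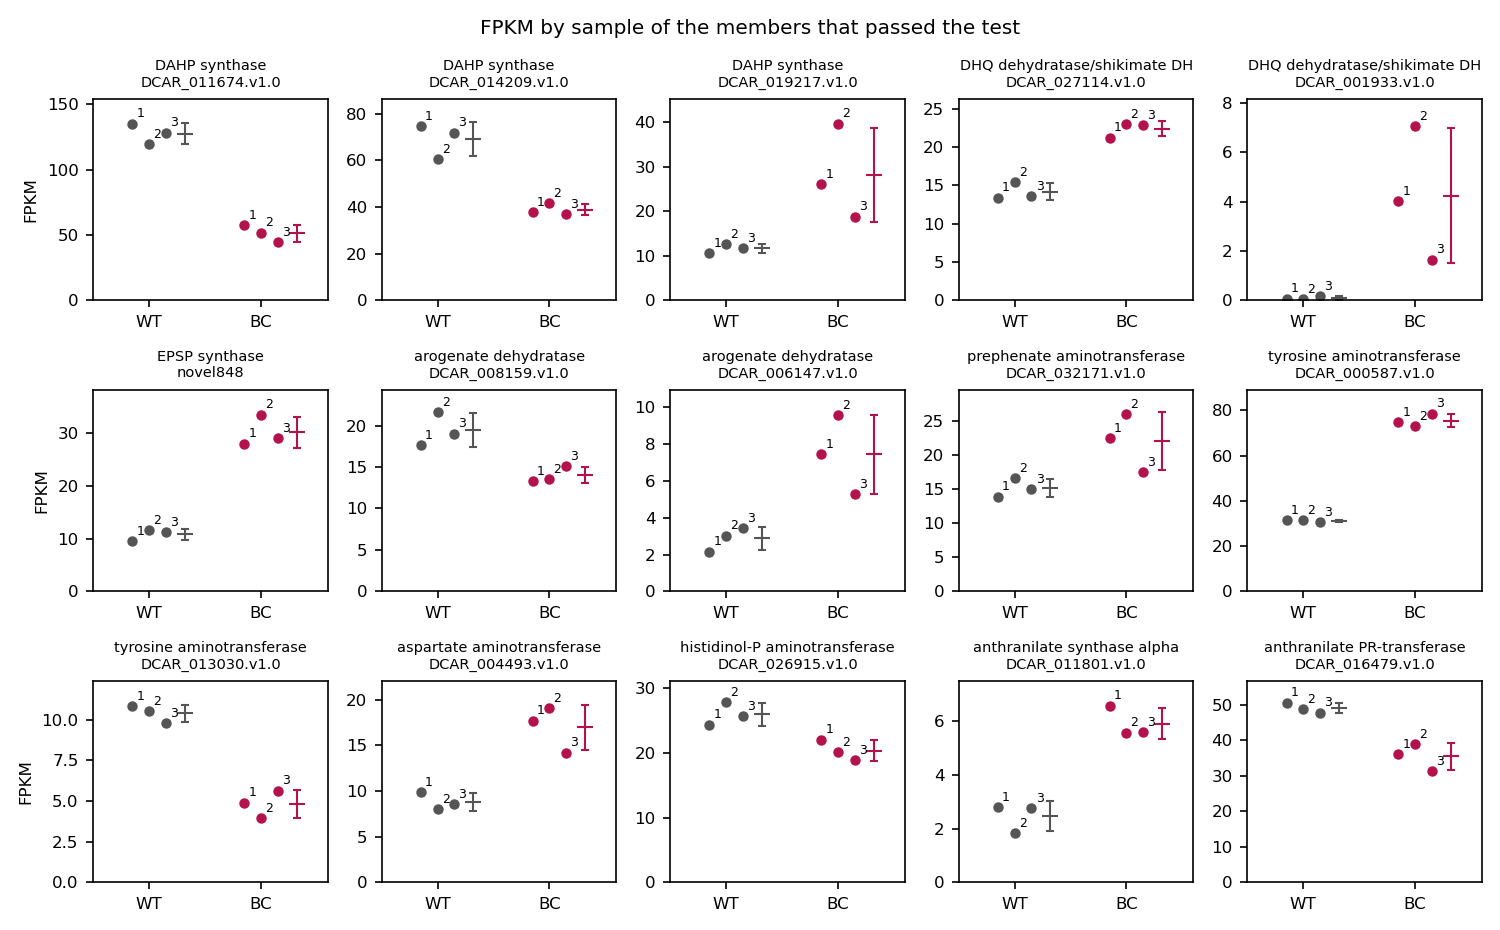
FPKM of the 15 members that passed the test, in each of the 3 WT and 3 BC samples (numbers beside points are replicate numbers), with mean and SD beside them. Groups overlap in none of the panels, and the BC points of DCAR_019217.v1.0, DCAR_001933.v1.0 and DCAR_006147.v1.0 are widely spread with replicate 2 highest.

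Among aminotransferases, prephenate aminotransferase forms arogenate, the shared precursor of phenylalanine and tyrosine, and has 1 gene here. DCAR_032171.v1.0 was at 13.9, 16.6 and 15.04 FPKM in WT, against 22.5, 25.95 and 17.5 in BC, a log2 change of 0.49 (SE 0.16; limma, Benjamini-Hochberg adjusted p = 0.0410). The BC samples lay above WT, replicate 3 only narrowly. The call was lost without WT replicate 1 (adjusted p = 0.118), WT replicate 2 (0.0526), WT replicate 3 (0.114), BC replicate 1 (0.120) or BC replicate 2 (0.111), with no filter (0.0554), after rescaling samples to the same total (0.0700) and with quantile normalization (0.0598, by limma, Benjamini-Hochberg).

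Tyrosine aminotransferase, which in plants acts mainly in tyrosine breakdown and leads toward tocopherols, had 5 tested genes, of which 1 rose and 1 fell. DCAR_000587.v1.0, described as a probable aminotransferase TAT2, was at 31.4, 31.3 and 30.65 FPKM in WT, against 74.8, 72.9 and 78.5 in BC. Both groups were tight and far apart, and its log2 fold change of 1.25 (SE 0.075) had the smallest adjusted p of all members (4.01e-05, by limma, Benjamini-Hochberg). DCAR_013030.v1.0, with the same description, was at 10.8, 10.5 and 9.79 FPKM in WT, against 4.91, 3.94 and 5.64 in BC, a log2 change of -0.97 (SE 0.15; limma, Benjamini-Hochberg adjusted p = 0.00231).

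DCAR_021258.v1.0 (47.8 ± 9.29 FPKM in WT, 34.9 ± 8.65 FPKM in BC) and DCAR_017122.v1.0 (2.58 ± 0.276 and 1.87 ± 0.708 FPKM) carry that description too and did not pass the test. Without BC replicate 2 the first had an adjusted p of 0.0400, and without BC replicate 3 the second had 0.0309 (by limma, Benjamini-Hochberg). DCAR_024558.v1.0, the most abundant gene that KEGG names tyrosine aminotransferase, at 94.0 ± 12.1 and 87.8 ± 9.38 FPKM, is described as an uncharacterized protein, and no aminotransferase domain is listed for it, so its place in the map is doubtful.

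Aspartate aminotransferases, which link aspartate and glutamate in many pathways, were led by genes that did not pass the test, DCAR_010455.v1.0 (117 ± 10.8 FPKM in WT, 119 ± 7.22 FPKM in BC) and DCAR_003005.v1.0 (70.5 ± 4.23 and 71.2 ± 12.8 FPKM). A scarce cytoplasmic form, DCAR_004493.v1.0, rose from 9.92, 7.99 and 8.61 FPKM in WT to 17.7, 19.05 and 14.2 FPKM in BC (log2 fold change 0.87 with SE 0.15; limma, Benjamini-Hochberg adjusted p = 0.00365). The mitochondrial form DCAR_021296.v1.0 was at 4.60 ± 1.401 and 8.46 ± 3.26 FPKM, and its adjusted p was 0.114, or 0.0169 without BC replicate 3 (by limma, Benjamini-Hochberg).

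Histidinol-phosphate aminotransferase, an enzyme of histidine synthesis, was at 24.4, 27.9 and 25.65 FPKM in WT, against 22.1, 20.2 and 18.9 in BC for DCAR_026915.v1.0, lower in every BC sample (log2 fold change -0.34 with SE 0.10; limma, Benjamini-Hochberg adjusted p = 0.0345). That call was lost without WT replicate 1 (adjusted p = 0.0544), WT replicate 2 (0.0819), WT replicate 3 (0.106), BC replicate 2 (0.0885) or BC replicate 3 (0.0659, by limma, Benjamini-Hochberg). DCAR_023441.v1.0 of the same name was at 0, 0.23 and 0.45 FPKM in WT, listed at 0 in BC, and not tested.

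In the tryptophan branch, anthranilate synthase turns chorismate into anthranilate and is the step that tryptophan inhibits. Its alpha subunit showed a change of composition at an even total. DCAR_011801.v1.0, described as alpha subunit 1, was at 2.81, 1.84 and 2.76 FPKM in WT, against 6.59, 5.58 and 5.59 in BC, a log2 change of 1.01 (SE 0.17; limma, Benjamini-Hochberg adjusted p = 0.00360). DCAR_018957.v1.0, described as alpha subunit 2 and the main gene, was at 13.5, 15.9 and 14.4 FPKM in WT, against 11.35, 10.9 and 13.2 in BC. All its BC values were below WT, but it did not pass the test (adjusted p = 0.0911), except with quantile normalization (0.0250) and without BC replicate 3 (0.0447, by limma, Benjamini-Hochberg).

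A further alpha subunit 2 gene, DCAR_018955.v1.0, was at 4.15 ± 0.548 and 3.70 ± 0.645 FPKM, and DCAR_013774.v1.0 was listed at 0. The alpha genes summed to 21.3 ± 0.904 FPKM in WT against 21.4 ± 1.41 in BC, and the part of DCAR_011801.v1.0 was 11.7% ± 2.79 and 27.7% ± 3.61. The beta subunit novel3480, which supplies ammonia from glutamine, was at 17.5 ± 1.56 and 16.3 ± 0.126 FPKM, with a 95% interval of -0.34 to 0.15 on the log2 scale.

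Of the enzymes after anthranilate, 1 fell. Anthranilate phosphoribosyltransferase DCAR_016479.v1.0, which joins anthranilate to ribose phosphate, was at 50.65, 48.7 and 47.9 FPKM in WT, against 36.2, 39.0 and 31.35 in BC, lower in all 3 samples (log2 fold change -0.46 with SE 0.10; limma, Benjamini-Hochberg adjusted p = 0.0104). A second gene of this name, DCAR_021707.v1.0, reached 0.05 FPKM in 1 BC sample and was not tested. Phosphoribosylanthranilate isomerase DCAR_023439.v1.0 (18.3 ± 0.853 and 19.4 ± 0.607 FPKM) and indole-3-glycerol phosphate synthase DCAR_019671.v1.0 (22.2 ± 1.62 and 19.4 ± 1.55 FPKM), which makes the indole ring, did not pass the test. All BC values of DCAR_019671.v1.0 were below WT.

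Tryptophan synthase, whose alpha chain releases indole and whose beta chain joins it to serine, was the most abundant enzyme of the branch. The alpha chain DCAR_002689.v1.0 was at 109, 94.9 and 95.2 FPKM in WT, against 123, 125 and 91.65 in BC, and the groups overlapped through BC replicate 3. Its adjusted p was 0.351, or 0.0377 without that sample (by limma, Benjamini-Hochberg). The beta chains DCAR_010034.v1.0 (104 ± 14.7 and 86.0 ± 9.81 FPKM) and DCAR_007525.v1.0 (21.7 ± 2.10 and 19.2 ± 0.846 FPKM) did not pass the test, although the first did after rescaling to the same total (adjusted p = 0.0406, by limma, Benjamini-Hochberg). All BC values of DCAR_007525.v1.0 were below WT.

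Several tested genes were present at 10 of the 19 steps, and at 7 of these at least 1 gene passed the test. Of the 32 tested genes at such steps, 16 held less than 25% of their step's FPKM in WT. Leaving out DCAR_001933.v1.0, which was tested through BC alone, 7 genes rose there and 6 of them lay under this bound, novel848 just under it with 24.1% ± 0.787, while DCAR_027114.v1.0 held 87.4% ± 3.94. The difference between 16 of 32 and 6 of 7 was not tested, and WT values enter both the share and the rise. DCAR_000587.v1.0 held 16.9% ± 1.96 with DCAR_024558.v1.0, whose place in the map is doubtful, counted in its step. Without that gene it would lie above the bound. The share of novel848 rests on the uncertain split of reads. At 3 steps (DAHP synthase, arogenate dehydratase and tyrosine aminotransferase) genes moved in both directions. Step totals did not overlap between the groups at 8 of the 19 steps, higher in BC at 4 and lower at 4. Taken singly, 57.1% of all tested genes did not overlap.

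The 3 BC samples differed among themselves in this pathway. BC replicate 2 was the highest and BC replicate 3 the lowest of the 3 for 20 of 41 tested members (48.8%), against 18.4% of all tested genes. Among the members that rose the count was 5 of 9 (55.6%), against 29.3% of all genes that rose, and among those that did not pass the test 13 of 26. Members summed to 1370.1, 1461 and 1213 FPKM in BC replicates 1 to 3 and to 1412, 1342 and 1375 FPKM in WT. The FPKM of all genes was also lowest in BC replicate 3 within BC, and its part in this order was not tested. Without BC replicate 3, 12 of the 41 members rose and 7 fell, against 4728 and 5203 of all 21033 tested genes.

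Among genes around the pathway, those that supply its substrates were mixed. The word search found 11 tested genes, and without an enolase-phosphatase and a gene described as a mitochondrial uncoupling protein, which have other functions, 3 of 9 rose and 2 fell, against 46.4% called among all tested genes. Transketolase, which can form erythrose 4-phosphate, was split: the abundant DCAR_008552.v1.0 rose from 199.5 ± 2.53 to 259 ± 22.0 FPKM (adjusted p = 0.0160), and DCAR_020201.v1.0 fell from 35.4 ± 1.55 to 16.4 ± 2.52 FPKM (adjusted p = 0.000813, by limma, Benjamini-Hochberg). The call of DCAR_008552.v1.0 was lost without WT replicate 3 (adjusted p = 0.0696), BC replicate 1 (0.0573) or BC replicate 2 (0.0558, by limma, Benjamini-Hochberg). The phosphoenolpyruvate/phosphate translocator DCAR_026143.v1.0, which brings phosphoenolpyruvate into plastids, fell from 32.5 ± 3.22 to 16.1 ± 0.570 FPKM.

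Isochorismate synthase DCAR_032137.v1.0 and aminodeoxychorismate synthase DCAR_015314.v1.0, which lead from chorismate to salicylate or phylloquinone and to folate, summed to 17.25 to 19.6 FPKM in WT and 15.01 to 19.8 FPKM in BC, and neither passed the test (adjusted p = 0.342 and 0.795, by limma, Benjamini-Hochberg). The 3 phenylalanine ammonia-lyase genes, which take phenylalanine into phenylpropanoids, summed to 1.12, 2.44 and 1.71 FPKM in WT, against 27.8, 52.3 and 9.31 in BC replicates 1 to 3. All 3 were below 1 FPKM in every WT sample and passed the filter on low values through BC alone, so they had to differ and their calls are not counted as support. The BC samples stood in the same order there as for DCAR_019217.v1.0 and DCAR_006147.v1.0. That order was also seen in 48.8% of tested members and 29.3% of all genes that rose, and a link between these genes was not tested.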

How the data were processed

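RNA-seq of fleshy roots was measured in 3 BC and 3 WT samples. The authors deposited 1 table of FPKM per gene and sample with KEGG, protein and domain annotation. RSEM is named in the submitters' processing notes without a version, and neither aligner nor genome build nor gene annotation is named there. RSEM divides reads among similar genes by estimation. FPKM are not counts and depth is unknown, so no interval for counting error is given.

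Of 50 members, 41 passed a filter of at least 1 FPKM in at least 3 of 6 samples, 39 of them with at least 1 FPKM in all 6, and 6 were at 0 throughout. The fit covered all 21033 genes that passed: limma 3.58.1 in R 4.3.3, lmFit and eBayes with a trend on log2(FPKM + 1), BC minus WT, Benjamini-Hochberg adjustment over all genes. Fold changes on this scale understate those of low genes. The fit was tested on simulated data. Steps were assigned by KEGG enzyme names and not, as first planned, by words of the description; RefSeq (DH1 v3.0) was used for neighbouring genes and matched 37 members through protein accessions. Members and lists were chosen with earlier results of these data known. Named in the text are members past the test that average 5 FPKM or more in a group, the most abundant member of each step and members at 0 throughout a group; all others are given briefly to account for every member. The same rule names, from each list of genes around the pathway, the most abundant called gene; transketolase DCAR_020201.v1.0 and the translocator were named after their values were seen. Alternatives were pseudocounts of 0.1 and 5, no filter or a filter at 5 FPKM, 3 scalings, eBayes without trend or robust, a replicate block and each sample left out. Figures used matplotlib 3.10.9 in Python 3.11.15.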

Additional observations from a re-analysis of the deposited data

How the results depend on the processing

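Of the 15 calls among members, 11 held under all 16 alternatives; that of DCAR_001933.v1.0 held under the 15 that tested it, and those of DCAR_008159.v1.0, DCAR_032171.v1.0 and DCAR_026915.v1.0 did not. Members higher in BC numbered 8 to 12 and members lower 4 to 8 over all alternatives. Leaving out single samples gave 8 to 12 higher and 4 to 7 lower members. Among all tested genes 3446 (without WT replicate 3) to 4873 (without WT replicate 2) were then higher in BC. Lower in BC were 3193 (without WT replicate 3) to 5203 (without BC replicate 3). Rescaling to equal totals moved the median log2 fold change of all genes to -0.11, of the trunk to -0.0323 and of the tryptophan branch to -0.24, which was -0.11 with a pseudocount of 5. Without single samples the trunk median ran from 0.00998 (without BC replicate 2) to 0.149 (without WT replicate 2), that of the aminotransferases from -0.113 to 0.0872, the tryptophan median from -0.20 (without WT replicate 2) to -0.134 and the median toward phenylalanine and tyrosine from 0.159 to 0.355 (without BC replicate 3). Members near 0 that did not pass the test changed sign. With equal totals DCAR_001370.v1.0 was at -0.0958, DCAR_015315.v1.0 at -0.0861, DCAR_010455.v1.0 at -0.0654 and DCAR_023439.v1.0 at -0.0167, and with median-ratio size factors DCAR_022909.v1.0 was at 0.0117. Without single samples the log2 fold change ranged from -0.113 to 0.0889 for DCAR_022909.v1.0, from -0.0698 to 0.0941 for DCAR_001370.v1.0, from -0.0522 to 0.124 for DCAR_015315.v1.0 and from -0.0300 to 0.103 for DCAR_010455.v1.0. The cause of these differences was not tested. Deviations of same-numbered samples from their group means had correlations of 0.196, -0.356 and -0.195, and those of differently numbered samples ran from -0.305 to 0.394. With 3 samples per group this cannot show whether the numbers pair the samples. With the replicate number as a block 9 members rose and 4 fell. There DCAR_032171.v1.0 (adjusted p = 0.0530), DCAR_008159.v1.0 (0.0505) and DCAR_026915.v1.0 (0.0855) were no longer called and DCAR_022859.v1.0 was (0.0484, limma, Benjamini-Hochberg). The 4806 higher and 4943 lower genes among all tested genes became 4032 and 3921. Depth is unknown and low members are imprecise.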

Other observations

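By RefSeq gene order, 2 pairs of pathway genes were direct neighbours with no protein-coding gene between them. The abundant transketolase DCAR_008552.v1.0 lies beside the EPSP synthase DCAR_008553.v1.0, and chorismate synthase DCAR_015315.v1.0 beside aminodeoxychorismate synthase DCAR_015314.v1.0, which uses chorismate. In the first pair the transketolase passed the test and the EPSP synthase did not (log2 fold changes 0.37 and 0.12), and the difference between them was not tested. In the second pair neither passed (0.01 and -0.06).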
